A study of Homo sapiens with 8 samples.

Results

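The genes described here act in homologous recombination, the repair of broken DNA by copying from a sister chromatid, and in the Fanconi anemia pathway, which repairs crosslinks between the strands of DNA. They were taken from a list of 40 gene symbols that was written by function and not by measured values. All 40 were present among the 23228 genes in each count file, and all 40 passed the filter on low counts that left 13915 genes to be tested. No symbol of the list was dropped.

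In homologous recombination, a broken end is first trimmed to single-stranded DNA by the complex of MRE11, RAD50 and NBN together with CtIP, the product of RBBP8. BRCA1 with BARD1, then PALB2 and BRCA2, prepare that strand for pairing, and RAD51B, RAD51C, RAD51D, XRCC2, XRCC3 and other factors help it to invade the sister chromatid. Helicases and nucleases then take the joined molecules apart. In the Fanconi anemia pathway, a core complex acts with the E2 enzyme UBE2T to attach ubiquitin to FANCD2 and FANCI, which marks a crosslink for cutting and hands the break to recombination. The kinases ATM and ATR, and CHEK1 and CHEK2 below them, signal the damage to the cell cycle. Most of these steps are used in S and G2 phases, when a sister chromatid is present, and many of the genes are known to be transcribed mainly in dividing cells.

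Total RNA was sequenced from 4 groups of 2 libraries whose labels name U87 MG, a human glioblastoma line kept in serum-containing medium. The control group was unmodified, and in the ERβ-KO group the gene of estrogen receptor beta (ERβ, ESR2) had been disrupted with CRISPR/Cas9. The ERβ1 and ERβ5 groups carry the same knockout with the named isoform reintroduced, ERβ1 being the full-length form and ERβ5 a variant spliced to a different carboxy terminus. The title of the series asks whether the isoforms differ in their effects. The sources used here do not give the number of clones in a group, the promoter that drove the isoforms, or whether the pair of libraries in a group came from different cultures. A p-value below therefore measures the spread between these libraries only, and that spread may be technical.

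The libraries held between 26760897 and 48076414 reads in genes. For ESR2, control gave 25 and 20 reads, ERβ-KO 23 and 21, ERβ1 6 and 18, and ERβ5 7 and 10, so its counts do not bear out the labels, and each direction below is one between libraries labelled so. The labelled cell type was not borne out by its markers either. Of 14 glial and mesenchymal glioma markers, OLIG2, S100B and POSTN had no read in any library and GFAP reached 0.135 CPM (read counts scaled so that every library has the same total), although SOX2 ran from 11.3 to 30.1 CPM and FN1 from 53.1 to 179 CPM. All 10 luminal epithelium markers were abundant, with KRT8 at 2101 to 4431 CPM and ESR1, the gene of estrogen receptor alpha, at 105 to 144 CPM. Of 6 immune markers, PTPRC, CD3E, MS4A1 and AIF1 stayed under 0.1 CPM, while CD14 reached 0.755 CPM and CD68 ran from 4.10 to 13.0 CPM. Of 4 endothelial markers, PECAM1, CDH5 and KDR stayed under 0.1 CPM and VWF reached 0.523 CPM.

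Many genes of this kind carry promoter elements bound by E2F, by NF-Y or by the complex at the cell cycle homology region, which ties transcription to the division cycle. Promoter sequences of 37 of the 40 genes were found in a RefSeq table (GRCh38.p14) and placed on GRCh37 by exact match, and NBN, RAD54B and FANCI had no entry. The 150 bases before the start are shown for 4 genes that fell in ERβ1 against ERβ-KO (BLM, FANCC, ATM and BRCA2) and, for contrast, for 2 that did not pass that test (FANCM and ATR). Capitals mark matches on either strand to any of the E2F words TTCCCGC and TTCGCGC and TTGCCGC and TTGGCGC, to the words TTTGAA and TTCGAA of the cell cycle homology region, or to the NF-Y word CCAAT. Up to 23 bases of a printed stretch lie in an annotated exon.
BLM, chr15:91260427-91260576, plus strand: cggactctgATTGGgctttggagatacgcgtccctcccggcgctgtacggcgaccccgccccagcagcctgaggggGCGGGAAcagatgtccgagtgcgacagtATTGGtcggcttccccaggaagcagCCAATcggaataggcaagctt
FANCC, chr9:98079992-98080141, minus strand: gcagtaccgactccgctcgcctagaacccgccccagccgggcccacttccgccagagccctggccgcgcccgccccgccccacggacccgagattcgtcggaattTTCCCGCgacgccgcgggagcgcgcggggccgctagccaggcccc
ATM, chr11:108093644-108093793, plus strand: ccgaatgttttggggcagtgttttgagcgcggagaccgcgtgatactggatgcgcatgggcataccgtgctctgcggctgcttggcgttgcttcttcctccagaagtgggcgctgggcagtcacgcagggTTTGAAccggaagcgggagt
BRCA2, chr13:32889495-32889644, plus strand: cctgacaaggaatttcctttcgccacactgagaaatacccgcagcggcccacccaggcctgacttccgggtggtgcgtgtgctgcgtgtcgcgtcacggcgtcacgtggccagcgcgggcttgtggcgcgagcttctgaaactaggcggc
FANCM, chr14:45604983-45605132, plus strand: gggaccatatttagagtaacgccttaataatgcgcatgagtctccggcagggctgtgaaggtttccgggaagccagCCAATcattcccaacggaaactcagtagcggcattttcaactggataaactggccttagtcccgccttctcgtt
ATR, chr3:142297576-142297725, minus strand: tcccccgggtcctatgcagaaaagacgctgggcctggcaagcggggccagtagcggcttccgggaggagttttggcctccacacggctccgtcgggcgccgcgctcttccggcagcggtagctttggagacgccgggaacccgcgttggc

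The BLM stretch holds 1 E2F match and 3 NF-Y matches, FANCC holds 1 E2F match and ATM 1 match to the cell cycle homology region. BRCA2 and ATR hold none of these letters in this window, and FANCM holds 1 NF-Y match. In the full 250 bases before the start, 11 of 37 genes (29.7%) held an E2F match, against 17.8% of 10419 promoters of tested genes. With the 50 bases after the start included, 20 of 37 (54.1%) held one, against 21.0% of those promoters. NF-Y letters were present in 18 of 37 (48.6%, against 35.3%) and the cell cycle homology region in 4 of 37 (10.8%, against 8.80%) before the start. An estrogen response element, searched as GGTCA, any 3 bases and TGACC, was found in 0 of 37 and in 2 of the 10419. Of the 24 genes with a promoter that fell in ERβ1 against ERβ-KO, 8 held an E2F match before the start, and of the other 13, 3 did. These are matches of letters only, and binding was not measured.

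Across the 40 genes the highest group was most often ERβ-KO and the lowest most often ERβ1. The group mean was highest in ERβ-KO for 31 genes, in ERβ5 for 5 and in control for 4, and it was lowest in ERβ1 for 27, in control for 7, in ERβ5 for 5 and in ERβ-KO for 1. For 26 genes both ERβ-KO libraries lay above all 6 others, which held for 17.9% of all genes tested. For 19 genes both ERβ1 libraries lay below all 6 others, against 6.76% of all genes tested. These are whole-culture RNA levels, in which fewer cells in a state that uses a gene and less RNA per cell cannot be told apart.

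**Figure D1:**
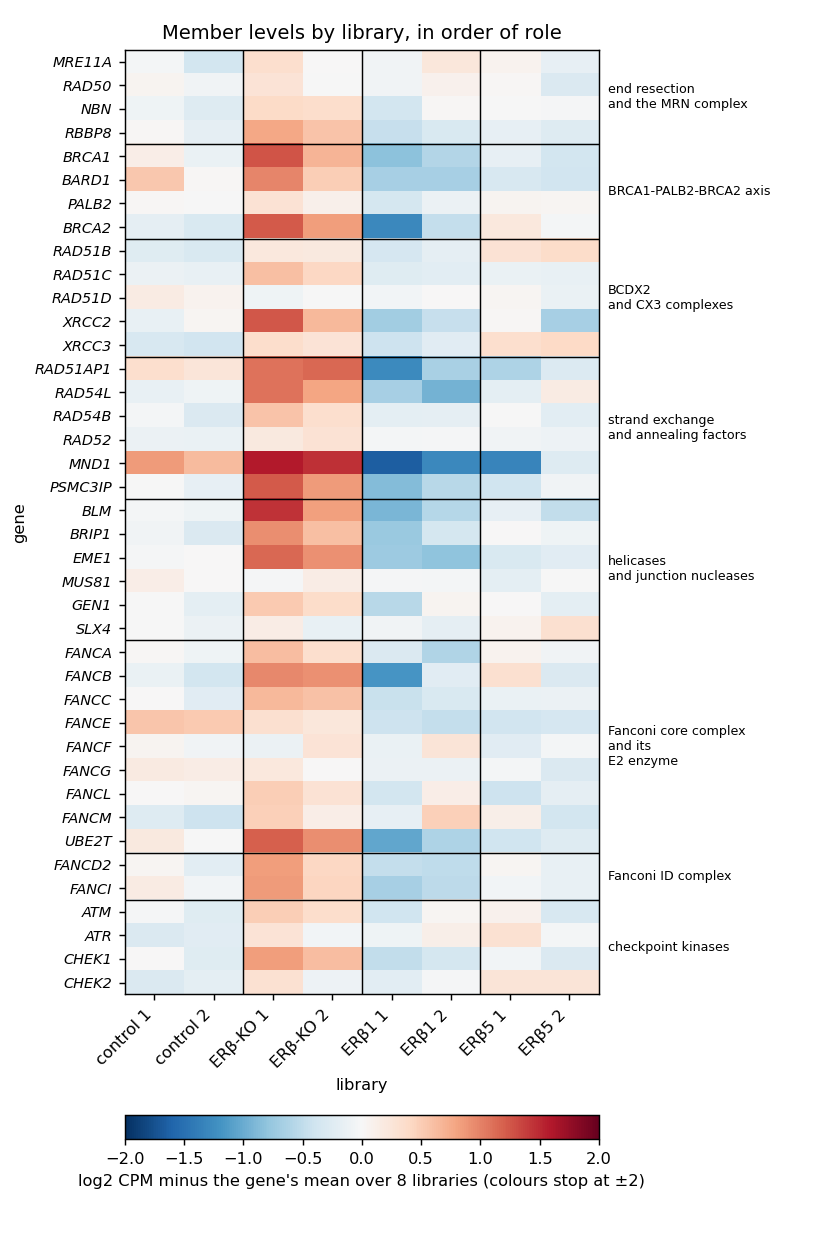
Level of each gene (rows, ordered by role) in each of the 8 libraries (columns), as log2 CPM minus the mean of that gene over the 8 libraries, with red above and blue below the mean and colours ending at 2 units. The ERβ-KO columns are mostly red and the ERβ1 columns mostly blue, and the rows of RAD51D, MUS81, FANCF, FANCG and SLX4 stay near white.

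Against control, 22 of the 40 genes were higher in ERβ-KO at an adjusted p under 0.05 (edgeR's quasi-likelihood test, Benjamini-Hochberg adjustment over all genes), where 8.98% of all genes tested were. No gene was lower by that test, where 8.52% of all genes were. At an unadjusted p under 0.05 edgeR had 29 higher and 1 lower, for which no share over all genes is given. DESeq2 called 25 higher and 0 lower, where it called 1377 and 1371 of 23228 genes. The median log2 change of the 40 was 0.58, against 0.01 over all genes. The count moved with single libraries, as it did over all genes. Without control 1, 13 genes passed (2.04% of all genes), without control 2 it was 2 (0.96%), without ERβ-KO 1 it was 6 (1.97%) and without ERβ-KO 2 it was 18 (4.7%). The median log2 change of the 40 was then 0.68, 0.46, 0.48 and 0.67. BRIP1 and EME1 were the 2 that passed in all of these.

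Against ERβ-KO, 27 genes were lower in ERβ1 and 26 in ERβ5. The shares of all genes that were lower were 12.5% and 13.5%. None of the 40 was higher in either comparison, where 12.4% and 14.7% of all genes were. With edgeR at an unadjusted p under 0.05, and with DESeq2, 0 were higher. DESeq2 called 1724 and 2050 of 23228 genes higher, and for the unadjusted p no share over all genes is given. The median log2 change was -0.72 in ERβ1 and -0.63 in ERβ5, against 0.00 and 0.01 over all genes. With each library left out in turn, the median ran from -0.78 to -0.66 in ERβ1 and from -0.68 to -0.50 in ERβ5. Both the -0.66 and the -0.50 came without ERβ-KO 1. In ERβ1, 22 of the 27 calls held in all of these, and ATM, GEN1, NBN, PALB2 and RAD54B did not. In ERβ5, 17 of the 26 held, and ATM, BRCA2, FANCA, FANCB, FANCD2, FANCL, GEN1, NBN and RAD54B did not. These comparisons and the one of ERβ-KO with control share the ERβ-KO libraries, so their values are set side by side below and one does not support another.

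**Figure D2:**
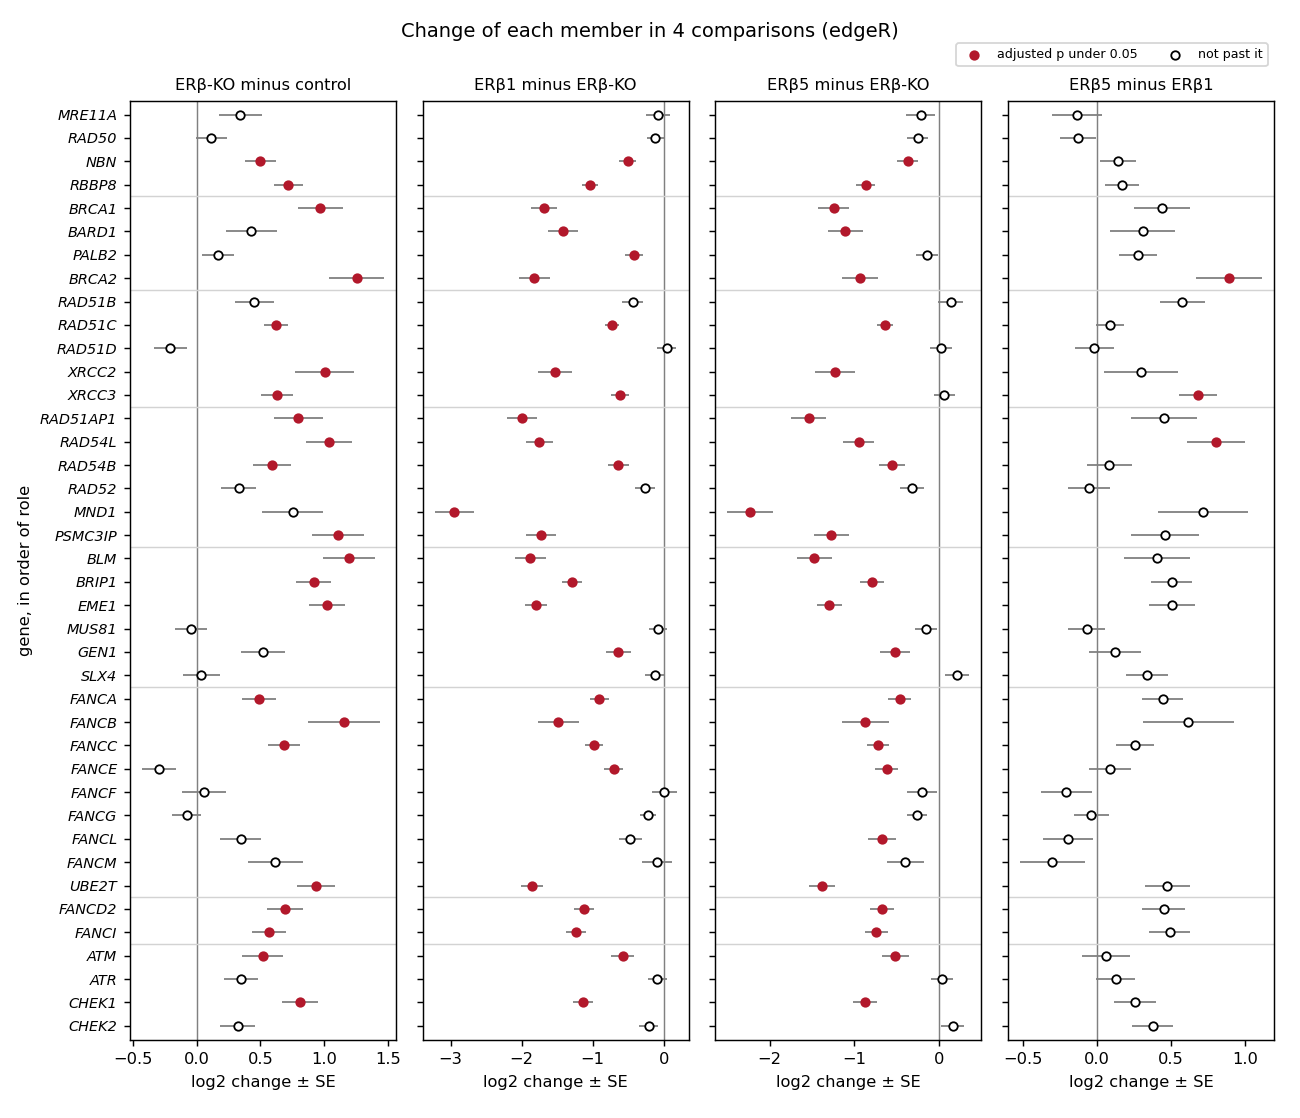
Log2 change of each gene (rows, ordered by role) with its standard error in 4 comparisons (panels), from edgeR. Filled red points have an adjusted p under 0.05: 22 lie to the right of 0 in ERβ-KO minus control, 27 and 26 to the left of 0 in the panels of ERβ1 and ERβ5 minus ERβ-KO, and 3 to the right in ERβ5 minus ERβ1.

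The end resection genes had the median closest to 0 of the role groups in ERβ1 against ERβ-KO, at -0.31. RBBP8, whose product CtIP starts resection (chr18:20378224-20606451, plus strand), stood at 53.0 and 46.3 CPM in control, 89.6 and 77.4 in ERβ-KO, 38.2 and 42.6 in ERβ1, and 46.9 and 43.8 in ERβ5. Both ERβ-KO libraries were above the other 6, and both ERβ1 libraries were below them. Its log2 change was 0.72 ± 0.11 (SE) in ERβ-KO against control (edgeR adjusted p = 0.00299), and against ERβ-KO it was -1.03 ± 0.11 in ERβ1 (adjusted p = 0.000114) and -0.87 ± 0.11 in ERβ5 (adjusted p = 0.000783). NBN, the subunit that brings ATM to the break, stood at 120 and 107 CPM in control, 165 and 161 in ERβ-KO, 98.4 and 129 in ERβ1, and 126 and 124 in ERβ5. It rose by 0.50 ± 0.12 in ERβ-KO (adjusted p = 0.0198) and fell by 0.51 ± 0.12 in ERβ1 (adjusted p = 0.0124) and by 0.37 ± 0.12 in ERβ5 (adjusted p = 0.043). The NBN rise was lost when any control or ERβ-KO library was left out, and none of the 3 NBN calls was left once each library's trend with GC content and length had been removed, with log2 changes of 0.12, -0.19 and 0.06 in ERβ-KO, ERβ1 and ERβ5. Of the other subunits of the complex, MRE11A (chr11:94148736-94227051, minus strand), the nuclease, stood at 12.6 and 9.97 CPM in control, 16.2 and 13.0 in ERβ-KO, 12.2 and 15.1 in ERβ1, and 13.5 and 11.4 in ERβ5. Its ranges overlapped between ERβ-KO and each isoform group, and its log2 change in ERβ1 against ERβ-KO was -0.08 ± 0.17 (adjusted p = 0.747). RAD50, the ATPase that holds the ends, ran from 141 to 207 CPM and passed in no comparison.

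The axis from BRCA1 to BRCA2 had some of the wider differences. BRCA1 (chr17:41196312-41322262, minus strand), a ubiquitin ligase that favours recombination at breaks, stood at 17.1 and 14.3 CPM in control, 37.7 and 25.2 in ERβ-KO, 8.89 and 10.4 in ERβ1, and 14.1 and 12.2 in ERβ5. The ERβ-KO libraries were far apart, yet the lower of them exceeded every other library. The log2 change was 0.97 ± 0.18 in ERβ-KO against control (edgeR adjusted p = 0.00594), -1.68 ± 0.18 in ERβ1 against ERβ-KO (adjusted p = 0.000107) and -1.25 ± 0.18 in ERβ5 against ERβ-KO (adjusted p = 0.00135). BRCA2 (chr13:32889223-32974405, plus strand), which acts with PALB2 to prepare the trimmed strand for pairing, stood at 10.1 and 9.29 CPM in control, 26.8 and 20.4 in ERβ-KO, 4.71 and 8.28 in ERβ1, and 13.3 and 11.2 in ERβ5. Its groups did not overlap, in the order ERβ-KO, ERβ5, control and ERβ1, but the ERβ1 libraries differed by more than those of control. The BRCA2 log2 change was 1.25 ± 0.21 in ERβ-KO (adjusted p = 0.00463), and against ERβ-KO it was -1.82 ± 0.22 in ERβ1 (adjusted p = 0.00024) and -0.93 ± 0.21 in ERβ5 (adjusted p = 0.0105). The rises of BRCA1 and BRCA2 in ERβ-KO were both lost without control 2 and without ERβ-KO 1, and the fall of BRCA2 in ERβ5 was lost without ERβ-KO 1 and without ERβ5 2.

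BARD1, the partner that makes BRCA1 an active ligase, stood at 8.32 and 5.86 CPM in control, 11.4 and 8.12 in ERβ-KO, 3.62 and 3.64 in ERβ1, and 4.59 and 4.398 in ERβ5. Control overlapped ERβ-KO, and all 4 isoform libraries were below both. BARD1 fell by 1.41 ± 0.21 in ERβ1 (edgeR adjusted p = 0.000861) and by 1.11 ± 0.21 in ERβ5 (adjusted p = 0.00447), while its log2 change of 0.43 ± 0.20 in ERβ-KO against control did not pass (adjusted p = 0.145). PALB2 (chr16:23614481-23652642, minus strand), the bridge between BRCA1 and BRCA2, had the least change of the axis. It stood at 16.8 and 16.4 CPM in control, 20.3 and 17.7 in ERβ-KO, 12.9 and 15.2 in ERβ1, and 17.2 and 16.97 in ERβ5. Its fall of 0.42 ± 0.13 in ERβ1 (adjusted p = 0.0348) was lost without either control library, either ERβ-KO library or ERβ1 1. The 4 genes of the axis thus counted 2 called higher in ERβ-KO, 4 called lower in ERβ1 and 3 called lower in ERβ5. Over all genes the shares called so were 8.98%, 12.5% and 13.5%.

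The 5 genes RAD51B, RAD51C, RAD51D, XRCC2 and XRCC3, whose products form small complexes that act in strand pairing, did not move together. XRCC2 (chr7:152341861-152373278, minus strand) stood at 4.52 and 5.13 CPM in control, 11.8 and 7.85 in ERβ-KO, 3.10 and 3.64 in ERβ1, and 5.11 and 3.16 in ERβ5, with the ERβ-KO libraries above all others. Its log2 change was 1.00 ± 0.23 in ERβ-KO (edgeR adjusted p = 0.0155), -1.53 ± 0.24 in ERβ1 (adjusted p = 0.00123) and -1.23 ± 0.24 in ERβ5 (adjusted p = 0.00515). RAD51C, a member of both complexes, had tight replicates at 127 and 125 CPM in control, 211 and 185 in ERβ-KO, 118 and 119 in ERβ1, and 126 and 125 in ERβ5. It rose by 0.62 ± 0.09 in ERβ-KO (adjusted p = 0.00255), and the ERβ5 libraries were back at the control level, with a log2 change of -0.02 against control (adjusted p = 0.914).

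XRCC3, the partner of RAD51C in the smaller complex, was high in ERβ-KO and in ERβ5, and was picked for description after its values were seen. It stood at 12.1 and 11.5 CPM in control, 19.2 and 18.2 in ERβ-KO, 11.2 and 12.9 in ERβ1, and 18.9 and 19.8 in ERβ5, so that the libraries split into a high and a low set without overlap. Its log2 change was 0.63 ± 0.13 in ERβ-KO against control (edgeR adjusted p = 0.00825), -0.62 ± 0.13 in ERβ1 against ERβ-KO (adjusted p = 0.00534), and 0.06 ± 0.12 in ERβ5 against ERβ-KO (adjusted p = 0.718). Over 18 alternative settings the first of these ran from 0.60 to 0.96 and the last from -0.33 to 0.11. The XRCC3 transcript has 62.8% GC, the highest of the 40 genes. RAD51B stood at 4.76 and 4.57 CPM in control, 6.56 and 6.47 in ERβ-KO, 4.48 and 5.01 in ERβ1, and 6.94 and 7.27 in ERβ5, a like split. Of its comparisons, ERβ5 against control passed, with a log2 change of 0.59 ± 0.15 (adjusted p = 0.0256). RAD51D (chr17:33419240-33448541, minus strand) ran from 10.1 to 12.5 CPM, with 12.5 and 11.7 in control, 10.4 and 10.98 in ERβ-KO, 10.7 and 11.1 in ERβ1, and 11.3 and 10.1 in ERβ5. Its log2 change was 0.04 ± 0.13 in ERβ1 against ERβ-KO (adjusted p = 0.84), and it passed in no comparison.

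**Figure D3:**
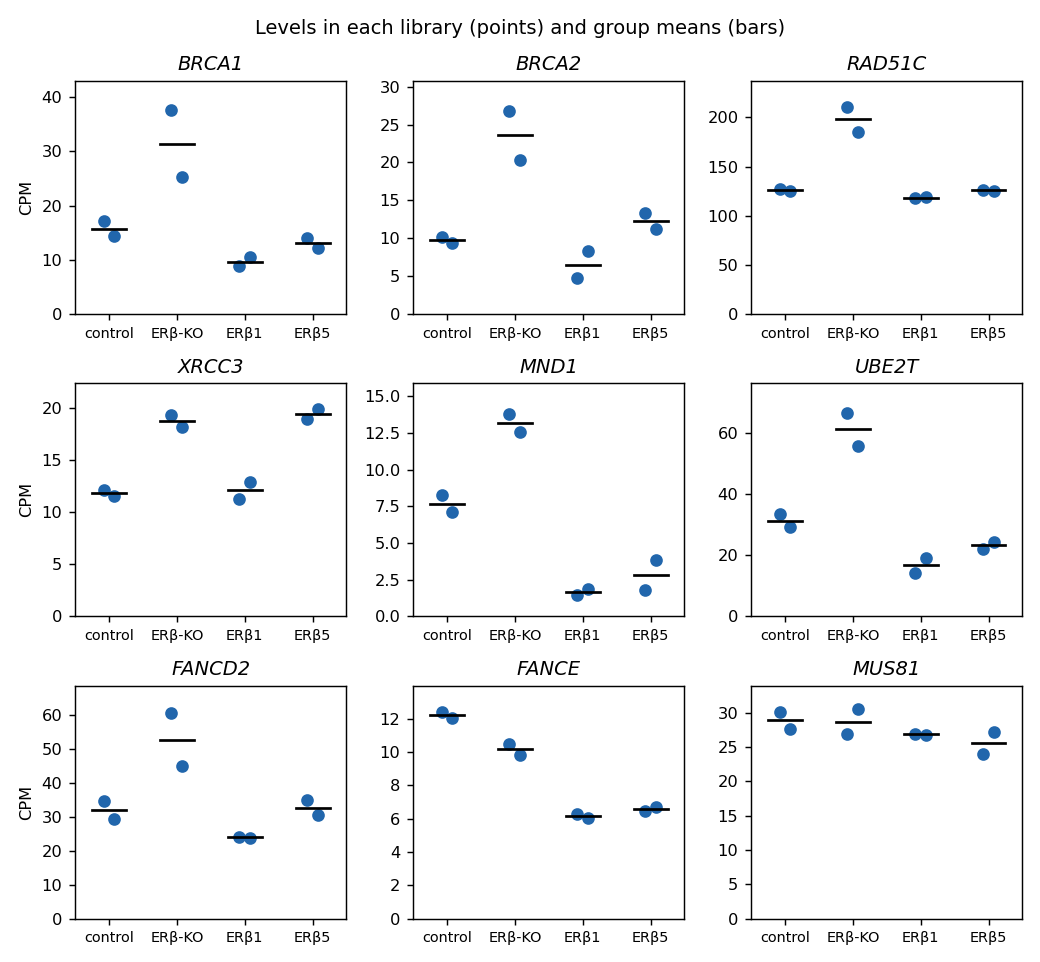
Level in CPM (linear axis from 0) of 9 genes in each library (points) with the group mean (bars), by group. BRCA1, BRCA2, RAD51C, UBE2T and FANCD2 peak in ERβ-KO, XRCC3 is high in ERβ-KO and ERβ5, MND1 and FANCE are low in both isoform groups, and MUS81 stays between 23.9 and 30.5 CPM.

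The strand exchange factors held the widest fall of the 40 genes. MND1 (chr4:154265801-154336270, plus strand), known with PSMC3IP as a heterodimer that helps homologous DNA to pair in meiosis, stood at 8.25 and 7.08 CPM in control, 13.8 and 12.6 in ERβ-KO, 1.46 and 1.87 in ERβ1, and 1.83 and 3.82 in ERβ5. Both isoform groups lay below control as well as below ERβ-KO. The log2 change was -2.95 ± 0.28 in ERβ1 (edgeR adjusted p = 4.01e-05) and -2.23 ± 0.27 in ERβ5 (adjusted p = 0.000465) against ERβ-KO, and -2.19 ± 0.28 and -1.48 ± 0.27 against control (adjusted p = 0.00128 and 0.00415). These 4 calls held in each of 18 alternatives, and 0.75 ± 0.24 in ERβ-KO against control missed the threshold (adjusted p = 0.0501). PSMC3IP itself stood at 2.93 and 2.62 CPM in control, 6.87 and 5.32 in ERβ-KO, 1.61 and 2.00 in ERβ1, and 2.24 and 2.80 in ERβ5, rose by 1.11 ± 0.20 in ERβ-KO (adjusted p = 0.00587) and fell by 1.73 ± 0.21 in ERβ1 (adjusted p = 0.000264).

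RAD51AP1, which aids the joining of DNA molecules, stood at 5.58 and 5.27 CPM in control, 9.42 and 9.83 in ERβ-KO, 1.83 and 2.83 in ERβ1, and 2.90 and 3.67 in ERβ5. Like MND1 it was lower than control in both isoform groups, with log2 changes of -1.20 ± 0.21 in ERβ1 (edgeR adjusted p = 0.00918) and -0.74 ± 0.21 in ERβ5 (adjusted p = 0.0369). RAD51AP1 was among the genes named after their values were seen. The ERβ1 call was lost without control 1 and without ERβ1 1, and the ERβ5 call without either control library, either ERβ-KO library or ERβ5 1. The translocases RAD54L and RAD54B, which move along DNA, rose in ERβ-KO, the first by 1.04 ± 0.18 (adjusted p = 0.0047) and the other by 0.59 ± 0.15 (adjusted p = 0.0223), and both fell in ERβ1 and ERβ5. The RAD54B rise was lost without either control library or ERβ-KO 1, and all 3 RAD54B calls were lost with the trend with GC and length removed, at 0.26, -0.34 and -0.18. RAD54B stood at 8.49 and 7.11 CPM in control, 13.0 and 11.04 in ERβ-KO, and 7.56 to 8.62 in the 4 isoform libraries, which lay around the control range. RAD52 (chr12:1020902-1099219, minus strand), which anneals single strands, stood at 6.97 and 6.89 CPM in control, 8.65 and 9.17 in ERβ-KO, 7.32 and 7.38 in ERβ1, and 7.14 and 7.01 in ERβ5. Both ERβ-KO libraries were the highest, but the log2 change of 0.33 ± 0.14 against control did not pass (adjusted p = 0.113), and neither did -0.26 in ERβ1 (adjusted p = 0.18).

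Among the helicases and junction nucleases, 3 of 6 rose in ERβ-KO, where 8.98% of all genes did. In each isoform group 4 of 6 fell, where 12.5% of all genes fell in ERβ1 and 13.5% in ERβ5. BLM (chr15:91260577-91359396, plus strand), the helicase that dissolves joined molecules without crossover, whose promoter with its E2F and NF-Y letters is printed above, stood at 6.42 and 6.21 CPM in control, 18.0 and 11.5 in ERβ-KO, 3.48 and 4.41 in ERβ1, and 5.86 and 4.65 in ERβ5. Every isoform library was below both control libraries. Its log2 change was 1.20 ± 0.20 in ERβ-KO (edgeR adjusted p = 0.00453), -1.88 ± 0.21 in ERβ1 (adjusted p = 0.000145) and -1.47 ± 0.21 in ERβ5 (adjusted p = 0.00121). BRIP1, a helicase that binds BRCA1, had the highest level per kilobase of the group (16.5 CPM per kilobase over all libraries), and stood at 121 and 105 CPM in control, 242 and 193 in ERβ-KO, 76.2 and 99.6 in ERβ1, and 129 and 120 in ERβ5. It rose by 0.92 ± 0.14 in ERβ-KO (adjusted p = 0.00258) and fell by 1.29 ± 0.14 in ERβ1 (adjusted p = 0.000101) and by 0.79 ± 0.14 in ERβ5 (adjusted p = 0.00356). Its ERβ5 libraries overlapped the range of control, and its ERβ1 libraries stayed below it.

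EME1 and MUS81 encode the subunits of 1 nuclease, and their levels differed in course. EME1, the regulatory subunit, stood at 6.996 and 7.11 CPM in control, 15.8 and 13.4 in ERβ-KO, 4.30 and 4.04 in ERβ1, and 5.72 and 6.07 in ERβ5, with no overlap between any groups. It rose by 1.02 ± 0.14 in ERβ-KO (edgeR adjusted p = 0.00168), and fell by 1.80 ± 0.15 in ERβ1 (adjusted p = 1.46e-05) and by 1.29 ± 0.15 in ERβ5 (adjusted p = 0.000322). MUS81 (chr11:65624597-65635124, plus strand), the catalytic subunit, stood at 30.1 and 27.7 CPM in control, 26.8 and 30.5 in ERβ-KO, 26.9 and 26.7 in ERβ1, and 23.9 and 27.1 in ERβ5, with overlapping groups and adjusted p of 0.833, 0.653 and 0.372 in these comparisons. GEN1, a resolvase of crossed strands, stood at 18.8 and 16.6 CPM in control, 27.2 and 24.5 in ERβ-KO, 12.9 and 19.8 in ERβ1, and 19.1 and 16.7 in ERβ5. It fell by 0.64 ± 0.17 in ERβ1 (adjusted p = 0.0217) and by 0.52 ± 0.17 in ERβ5 (adjusted p = 0.0452), and the ERβ5 call was lost when any control, ERβ-KO or ERβ5 library was left out. SLX4, the scaffold that gathers nucleases, ran from 16.97 to 24.2 CPM and passed in no comparison.

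Within the Fanconi core complex and its E2 enzyme, 4 of 9 genes rose in ERβ-KO, 5 fell in ERβ1 and 6 fell in ERβ5. The shares of all genes that did so were 8.98%, 12.5% and 13.5%, in that order. UBE2T (chr1:202300672-202311112, minus strand), the E2 enzyme that passes ubiquitin to FANCD2, stood at 33.5 and 29.3 CPM in control, 66.8 and 55.9 in ERβ-KO, 14.3 and 19.1 in ERβ1, and 22.2 and 24.5 in ERβ5. The groups did not overlap at any point. UBE2T rose by 0.94 ± 0.15 in ERβ-KO (edgeR adjusted p = 0.00298) and fell by 1.86 ± 0.15 in ERβ1 (adjusted p = 1.31e-05) and by 1.38 ± 0.15 in ERβ5 (adjusted p = 0.000259). FANCL, the ubiquitin ligase of the complex that works with UBE2T, had 0.34 ± 0.16 in ERβ-KO and -0.47 in ERβ1, neither past the threshold (adjusted p = 0.156 and 0.0546), and fell by 0.67 ± 0.17 in ERβ5 (adjusted p = 0.014), a call lost without ERβ-KO 1. FANCA, FANCB and FANCC, structural subunits, rose in ERβ-KO and fell in both isoform groups, with log2 changes of -0.91, -1.49 and -0.98 in ERβ1. FANCC, whose promoter with its E2F word is printed above, stood at 18.1 and 15.3 CPM in control, 27.9 and 26.8 in ERβ-KO, 13.1 and 14.4 in ERβ1, and 16.3 and 16.5 in ERβ5. FANCA stood at 33.4 and 31.0 CPM in control, 50.4 and 41.9 in ERβ-KO, 27.2 and 21.7 in ERβ1, and 34.7 and 31.5 in ERβ5. For both genes the ERβ1 libraries were the lowest of all. FANCB ran from 0.785 to 3.47 CPM. Its rise was lost without either control library or either ERβ-KO library.

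FANCE, the subunit that contacts FANCD2, followed another course and was chosen for its values. It stood at 12.4 and 12.0 CPM in control, 10.5 and 9.83 in ERβ-KO, 6.32 and 6.07 in ERβ1, and 6.44 and 6.69 in ERβ5, so control was its highest group. The log2 change was -0.29 ± 0.13 in ERβ-KO against control (edgeR adjusted p = 0.135), and against control it was -0.9991 ± 0.14 in ERβ1 (adjusted p = 0.00185) and -0.91 ± 0.14 in ERβ5 (adjusted p = 0.00128). FANCF (chr11:22644079-22647369, minus strand, a gene of 1 exon), an adaptor in the complex, stood at 17.9 and 16.5 CPM in control, 15.9 and 20.8 in ERβ-KO, 15.8 and 20.7 in ERβ1, and 14.7 and 16.9 in ERβ5. Its replicates spanned as much as its groups, and the log2 change in ERβ1 against ERβ-KO was 0.01 ± 0.17 (adjusted p = 0.972). FANCG ran from 28.3 to 40.04 CPM and FANCM, which anchors the complex to DNA, from 6.35 to 11.8 CPM, and neither passed in any comparison.

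FANCD2 and FANCI, the pair that receives ubiquitin, had the same calls in the 3 comparisons with ERβ-KO. FANCD2 (chr3:10068054-10143616, plus strand) stood at 34.6 and 29.3 CPM in control, 60.6 and 45.1 in ERβ-KO, 24.2 and 23.8 in ERβ1, and 34.9 and 30.6 in ERβ5. FANCI (chr15:89787176-89860492, plus strand) stood at 50.8 and 43.5 CPM in control, 81.7 and 60.9 in ERβ-KO, 28.6 and 31.4 in ERβ1, and 43.5 and 40.9 in ERβ5. For both, ERβ-KO was the highest group and ERβ1 the lowest, and against control the log2 change in ERβ5 was 0.02 for FANCD2 and -0.18 for FANCI (edgeR adjusted p = 0.949 and 0.451). In ERβ-KO the log2 changes were 0.69 ± 0.14 for FANCD2 (edgeR adjusted p = 0.00953) and 0.57 ± 0.14 for FANCI (adjusted p = 0.0183). In ERβ1 they were -1.12 ± 0.14 (adjusted p = 0.000344) and -1.23 ± 0.14 (adjusted p = 0.000128), and in ERβ5 -0.67 ± 0.14 (adjusted p = 0.00756) and -0.74 ± 0.14 (adjusted p = 0.00422). Reads that FANCD2 shares with its pseudogene copies were not counted if they had more than 1 place.

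Of the checkpoint kinases, ATM and CHEK1 passed in the comparisons with ERβ-KO and ATR and CHEK2 did not. CHEK1 (chr11:125495058-125546150, plus strand), the kinase below ATR that slows replication, stood at 16.7 and 14.1 CPM in control, 29.7 and 25.6 in ERβ-KO, 11.9 and 13.0 in ERβ1, and 16.1 and 13.6 in ERβ5. It rose by 0.81 ± 0.14 in ERβ-KO (edgeR adjusted p = 0.00454) and fell by 1.13 ± 0.14 in ERβ1 (adjusted p = 0.000273) and by 0.88 ± 0.14 in ERβ5 (adjusted p = 0.0022). ATM (chr11:108093771-108239829, plus strand), the kinase that answers double-strand breaks, stood at 30.9 and 26.6 CPM in control, 44.1 and 40.2 in ERβ-KO, 23.7 and 32.1 in ERβ1, and 33.3 and 25.1 in ERβ5. The ERβ-KO libraries were its highest, and the libraries of each isoform group lay on both sides of the control range. ATM had a log2 change of 0.52 ± 0.16 in ERβ-KO (adjusted p = 0.046), -0.58 ± 0.16 in ERβ1 (adjusted p = 0.0238) and -0.52 ± 0.16 in ERβ5 (adjusted p = 0.0352), and each of these was lost without ERβ-KO 1 and without ERβ-KO 2. The first was also lost without either control library, the fall in ERβ1 without ERβ1 1 and the fall in ERβ5 without ERβ5 2. ATR (chr3:142167849-142297575, minus strand), which answers stalled forks and whose promoter is printed above, stood at 50.2 and 52.5 CPM in control, 74.2 and 59.1 in ERβ-KO, 57.8 and 66.4 in ERβ1, and 75.6 and 59.8 in ERβ5. Control was its lowest group, and it passed in no comparison. CHEK2, the kinase below ATM, stood at 18.8 and 20.05 CPM in control, 28.3 and 21.3 in ERβ-KO, 19.7 and 22.6 in ERβ1, and 27.5 and 27.4 in ERβ5. It passed in ERβ5 against control alone, with 0.48 ± 0.14 (adjusted p = 0.043), a call lost when any library of these groups was left out.

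The direct comparison of the isoforms, ERβ5 against ERβ1, called 3 of the 40 genes higher (3.49% of all genes) and none lower (1.18%). At an unadjusted p under 0.05 edgeR had 14 higher and 0 lower, for which no share over all genes is given. DESeq2 called 5 higher and 0 lower, where it called 621 and 269 of 23228 genes. BRCA2 was higher in ERβ5 by 0.89 ± 0.22 (edgeR adjusted p = 0.0454), RAD54L by 0.80 ± 0.19 (adjusted p = 0.0376) and XRCC3 by 0.68 ± 0.13 (adjusted p = 0.00969). For RAD54L the levels were 5.05 and 5.24 CPM in control, 11.9 and 9.66 in ERβ-KO, 3.51 and 2.89 in ERβ1, and 4.88 and 6.22 in ERβ5, so the ERβ5 libraries lay on both sides of control. The median log2 difference of the 40 was 0.29, against -0.01 over all genes. Both ERβ5 libraries lay above both ERβ1 libraries for 23 genes, which held for 22.1% of all genes, and both lay below for 1 gene, RAD52, which held for 20.9%. The median of the 40 was 0.20 without ERβ1 1, 0.27 without ERβ5 2, and 0.29 without control 1 and without control 2. With no filter on low counts 10 genes were called higher, where 867 of 18447 genes were. With the trend with GC and length removed it was also 10, where 758 of 13915 genes were.

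Against control, 7 genes were lower in ERβ1 (2.7% of all genes) and none was higher (1.36%). At an unadjusted p under 0.05 there were 19 lower and 1 higher, for which no share over all genes is given. DESeq2 called 9 lower and 0 higher, where it called 521 and 332 of 23228 genes. The 7 were MND1, RAD51AP1, FANCE, BARD1, UBE2T, EME1 and FANCI, with falls from 0.67 ± 0.14 (FANCI, edgeR adjusted p = 0.0204) to 2.19 ± 0.28 (MND1). MND1 and FANCE passed with every library left out in turn, and the median of the 40 was -0.20 without control 1 and -0.18 without ERβ1 1. ERβ5 had 3 genes lower than control (6.31% of all genes), which were MND1, RAD51AP1 and FANCE, and 3 higher (6.85%), which were XRCC3 at 0.70 ± 0.13 (adjusted p = 0.00395), RAD51B and CHEK2. The median log2 change against control was -0.30 in ERβ1 and -0.03 in ERβ5. Without control 1 the median in ERβ5 was 0.03, and without control 2 it was -0.12. MND1 and FANCE passed there with every library left out. These comparisons share the control libraries.

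The level per kilobase of transcript differed widely between the genes. Averaged over all libraries it was highest for RAD51C (55.4 CPM per kilobase), UBE2T (37.7) and NBN (27.8), and lowest for FANCB (0.652), BRCA2 (1.08) and RAD51D (1.11). BRCA1, at 2.46 CPM per kilobase, was in the lower range, as were BLM at 1.44 and XRCC2 at 1.16. Within the axis PALB2 had the highest level of the 4 genes at 4.16 CPM per kilobase. In ERβ-KO alone UBE2T reached 69.1 CPM per kilobase, near the 76.5 of RAD51C, and in ERβ1 it stood at 18.99 against 46.2.

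Other genes of the pathways were read from a further list of 59. Of these, 57 were in the files and 55 were tested, of which 14 rose and 1 fell in ERβ-KO against control (median log2 change 0.17), where 8.98% and 8.52% of all genes did. In ERβ1 against ERβ-KO, 5 rose and 20 fell (median -0.19), where 12.4% and 12.5% of all genes did, and in ERβ5 against ERβ-KO 7 rose and 18 fell (median -0.21), where 14.7% and 13.5% did. The shares of the list that rose in the last 2 comparisons were under those over all genes. In ERβ5 against ERβ1 none passed, where 3.49% of all genes were higher and 1.18% lower. At an unadjusted p under 0.05, 8 were higher and 1 lower, for which no share over all genes is given. DMC1, a meiotic recombination gene, fell by 2.85 ± 0.41 in ERβ1 (edgeR adjusted p = 0.00071), from 2.36 ± 0.494 to 0.309 ± 0.118 CPM (SD, n = 2). EXO1, a resection nuclease, fell by 2.16 ± 0.22 (adjusted p = 6.70e-05), and CLSPN, the adaptor through which ATR activates CHEK1, by 1.83 ± 0.24 (adjusted p = 0.000414). POLQ, the polymerase of the alternative end joining route, rose by 1.04 ± 0.17 in ERβ-KO (adjusted p = 0.00344).

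Among 12 tested genes of the competing route, non-homologous end joining, 1 rose and 2 fell in ERβ-KO against control. In ERβ1 against ERβ-KO 1 rose, and in ERβ5 against ERβ-KO none passed. In the last, 1 was higher and 1 lower at an unadjusted p under 0.05, for which no share over all genes is given. Of all genes, 8.98% rose and 8.52% fell in the first comparison, 12.4% rose and 12.5% fell in the second, and 14.7% rose and 13.5% fell in the third. Their median log2 changes were 0.02, 0.01 and -0.04. Genes of the division cycle moved with the 40 genes. All 20 mitosis markers rose in ERβ-KO (median 0.83), fell in ERβ1 (median -2.09) and fell in ERβ5 (median -1.08). Of the 20, 16 were called higher in ERβ5 than in ERβ1, where 3.49% of all genes were. Their summed level was 688 and 610 CPM in control, 1327 and 1155 in ERβ-KO, 293 and 350 in ERβ1, and 511 and 554 in ERβ5. Of 24 replication markers, 13 rose and 1 fell in ERβ-KO (median 0.43), 20 fell in ERβ1 (median -0.91) and 18 fell in ERβ5 (median -0.64). Their sum was 1240 and 1113 CPM in control, 1649 and 1430 in ERβ-KO, 844 and 845 in ERβ1, and 1034 and 931 in ERβ5. The part of these markers in the levels of the 40 genes was not tested.

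**Figure D4:**
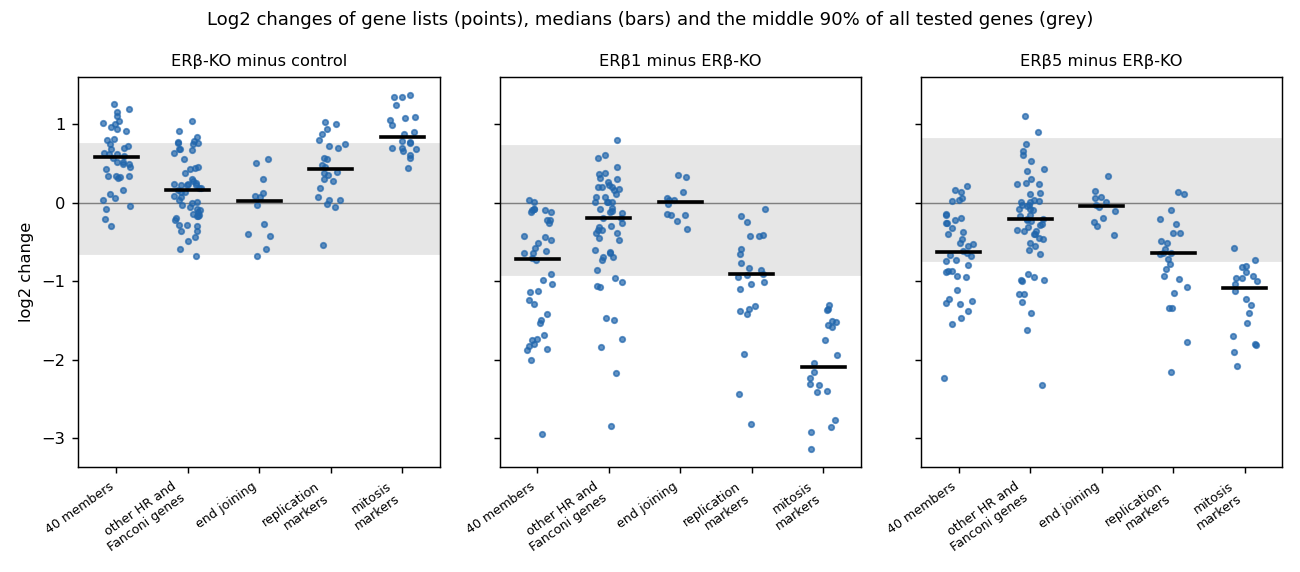
Log2 change of every tested gene (points) of 5 gene lists in 3 comparisons (panels), with the median of each list (bars) and the middle 90% of all tested genes (grey band). The mitosis markers lie farthest from 0, with medians of 0.83, -2.09 and -1.08, the 40 genes (medians 0.58, -0.72 and -0.63) lie near the replication markers, and the end joining genes lie around 0.

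Interferon-induced genes, which differ strongly between these libraries, had another order. Their summed level over 15 genes was 1345 and 1395 CPM in control, 9834 and 8256 in ERβ-KO, 2805 and 3173 in ERβ1, and 13260 and 22413 in ERβ5, so ERβ5 was highest. Of the 40 genes, RAD51B alone had both ERβ5 libraries above the other 6, which held for 8.8% of all genes tested. The luminal markers summed to 12780 and 12848 CPM in ERβ-KO and to 14259 to 18298 CPM in the other 6 libraries. The 14 glial and mesenchymal markers summed to 305 and 249.2 CPM in ERβ-KO and to 143 to 203 CPM in the other 6. Of 9 tested, 1 rose in ERβ-KO (median 0.09), 6 fell in ERβ1 (median -1.13) and 3 fell in ERβ5 (median -0.70). Over all genes 8.98% rose in ERβ-KO, 12.5% fell in ERβ1 and 13.5% fell in ERβ5. The 6 immune markers summed to 4.64 to 6.89 CPM in control, ERβ-KO and ERβ1 and to 10.1 and 13.6 CPM in ERβ5. Both that were tested, CD68 and CD14, were called higher in ERβ5 against ERβ-KO, where 14.7% of all genes were. The 4 endothelial markers summed to 0.0962 to 0.598 CPM, and none was tested. The part of any of these lists in the levels of the 40 genes was not tested.

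The transcripts of these genes are poorer in GC than most, and the ERβ-KO libraries carried a trend with GC. The median GC content was 41.8% for the 40 genes and 48.8% for the 13110 tested genes with a match in the annotation. Across those genes, which are not independent replicates, a library's log2 deviation from the mean of all libraries correlated with GC at -0.57 in ERβ-KO 1 and -0.46 in ERβ-KO 2, against -0.14 to 0.36 in the other 6. Among the 20 genes at or below the median GC of the 40, 12 rose in ERβ-KO with a median of 0.67, where all genes in that GC range had a median of 0.27 and 21.3% rose. Among the 20 above it, 10 rose with a median of 0.47, where all genes of that range had -0.05 and 5.78% rose. In ERβ1 against ERβ-KO, 15 of the low-GC genes fell (median -1.08, against -0.24 and 24.97% of all genes in that range) and 12 of the high-GC genes fell (median -0.66, against 0.06 and 10.2%). In ERβ5 against ERβ-KO, 16 low-GC genes fell (median -0.83, against -0.31 and 33.1%) and 10 high-GC genes fell (median -0.39, against 0.08 and 8.48%). With each library's trend with GC and length removed, 17 genes were called higher in ERβ-KO against control (median 0.42), where 881 of 13915 genes were. In ERβ1 against ERβ-KO 26 were called lower (median -0.86), where 1829 of all genes were. In ERβ5 against ERβ-KO 23 were called (median -0.47), of which 22 were lower, where 1308 of all genes were. The other, ATR, was higher (log2 change 0.31, adjusted p = 0.0295 with edgeR), where 1211 of all genes were. This removal ended the calls of ATM, FANCB, NBN, RAD51AP1 and RAD54B in ERβ-KO, of NBN, PALB2 and RAD54B in ERβ1, and of ATM, FANCB, FANCL, GEN1, NBN and RAD54B in ERβ5. It added falls of MUS81 and FANCG in both isoform groups, with log2 changes of -0.35 and -0.43 in ERβ1 and -0.48 for both in ERβ5.

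Some counts can be off where exons are shared with a neighbour, because no strand setting is given. Exons of RAD54L overlap exons of LRRC41 on the other strand by 566 bases, and the same holds for PSMC3IP and MLX (775 bases), EME1 and LRRC59 (246), FANCA and ZNF276 (1328), FANCL and VRK2 (452), and FANCI and POLG (431). If strand was not used, reads of such pairs cannot be told apart there. They may then have been set aside as ambiguous, an entry that held 0.54% to 0.561% of a file's total. The other genes of the 40 had no such overlap between the representative (canonical) transcripts of the genes in the annotation used. Exons of other transcripts were not searched. CHEK2, like FANCD2, has pseudogene copies, so its level is uncertain.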

How the data were processed

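The deposited values are raw counts of reads per gene, made with bcl2fastq, TopHat2 2.0.8b on hg19 and HTSeq, per the submitters' processing notes. They were used as they stand, and 5 closing entries of each file that name no gene were left out. No source used here gives the strand setting or the gene annotation behind them.

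Counts were filtered with filterByExpr (minimum count 10, minimum total 15) and scaled by TMM. They were tested with edgeR 4.0.16 (robust quasi-likelihood fit of all 8 libraries, R 4.3.3), with p-values adjusted by the Benjamini-Hochberg method over 13915 genes. Genes under an adjusted p of 0.05 were called. Levels of single libraries are CPM by total gene count, group means are TMM-scaled, and an SE is the absolute log2 change over the root of its F statistic. The fit was tested on counts simulated with changes in ERβ-KO against control. It called 46.3% of genes changed 1.5-fold, 92.5% of those changed 2-fold and 98.5% of those changed 4-fold, with 15 false calls. A gene not called can therefore still have changed 1.5-fold. Positions were read from GENCODE on GRCh37 (hg19).

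The genes and lists were chosen with earlier results of these data known. Values in every library are given for BRCA1, BRCA2, FANCD2, ATM and CHEK1 and for the gene of each role group with the largest and the smallest change in ERβ1 against ERβ-KO. Of other pathway genes, up to 4 per comparison with the largest called changes and no overlap between libraries could be named. Of the genes this rule picks, 1 is not reported here. Alternatives were other size factors and filters, a minimum change of 1.5-fold, the compared groups alone, DESeq2 1.42.0, a replicate block, removal of each library's trend with GC content and length, and leaving out each library.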

Additional observations from a re-analysis of the deposited data

Results flagged for a closer look

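In the direct comparison of the libraries labelled ERβ5 and ERβ1, 3 genes were called higher in ERβ5 (edgeR's quasi-likelihood test), where 3.49% of all genes were. BRCA2 was higher in ERβ5 by 0.8904 on the log2 scale, with 4.71 and 8.28 CPM in ERβ1 and 13.3 and 11.2 in ERβ5. RAD54L was higher by 0.8041 and XRCC3 by 0.6817. For each of the 3, both ERβ5 libraries lay above both ERβ1 libraries, which held for 22.1% of all genes. The BRCA2 call was lost without either control library, ERβ1 1 or either ERβ5 library, and with the replicate block. The RAD54L call was lost without either control library, either ERβ1 library or ERβ5 2, and in a fit of these groups alone. The XRCC3 call was lost without ERβ1 1 and without ERβ5 2. Against a minimum change of 1.5-fold none of the 3 passed.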

How the results depend on the processing

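Of 240 log2 changes (40 genes in 6 comparisons), 91 were called, and 1 of these, NBN in ERβ5 against ERβ-KO, turned sign under an alternative. Of the 149 not called, 58 turned sign under at least 1. With each library left out in turn, calls ran from 2 to 26 in ERβ-KO against control, 17 to 26 in ERβ5 against ERβ-KO, 0 to 4 in ERβ5 against ERβ1, 2 to 9 in ERβ1 against control and 3 to 7 in ERβ5 against control. No share over all genes is given with these ranges. The number of all genes called also moved with the library left out. The range in ERβ1 against ERβ-KO is not listed. A library left alone in its group was taken to vary like the others. The median log2 change in ERβ5 against control ran from -0.1216 without control 2 to 0.0325 without control 1, which turned its sign. Against a minimum change of 1.5-fold, 0 genes passed in ERβ-KO against control, where 123 of 13915 genes did. Against ERβ-KO, 18 passed in ERβ1 and 6 in ERβ5, where 455 and 160 of all genes did. In ERβ5 against ERβ1 it was 0, where 189 of all genes passed. Against control, 1 each passed in ERβ1 and ERβ5, where 86 and 341 of all genes did. With no filter on low counts, 10 genes passed in ERβ5 against ERβ1 and 15 in ERβ1 against control, where 1375 and 1384 of 18447 genes did. With the trend with GC and length removed the counts were again 10 and 15, where 1162 and 1367 of 13915 genes passed. Adding the replicate block to that left them at 10 and 15, where 1286 and 1493 of all genes passed. DESeq2 called 5 in ERβ5 against ERβ1, where it called 890 of 23228 genes. The NBN change in ERβ5 against ERβ-KO turned to 0.05696 with the trend removed and 0.05617 with the replicate block added. The causes were not tested.

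With the replicate block alone, 22, 28, 25, 2, 8 and 6 genes were called in the order ERβ-KO against control, ERβ1 and ERβ5 against ERβ-KO, ERβ5 against ERβ1, and ERβ1 and ERβ5 against control. Of 13915 genes it called 2532, 3519, 3929, 652, 581 and 1850 in that order. Deviations of libraries with the same number correlated at -0.12, 0.14, 0.14, -0.10, -0.12 and 0.07, and with 2 numbers a group the libraries share only a number. Crossing the numbers in the block, in fits of the compared groups alone, was an alternative added after the data were seen. In ERβ-KO against control it called 31 genes against 30 as numbered, where 5129 and 4607 of all genes were called. In ERβ1 against control it called 16 against 14, where 1806 and 1419 of all genes were called. Other size factors gave counts within 1 of those reported. Genes such as FANCB, with 21 to 148 reads in a library, carry wider errors than RAD51C.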
